A study of Mus musculus with 8 samples.

Results

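The genes described here are inhibitors of cyclin-dependent kinases (CDKs) and genes that the tumour suppressor p53 regulates or is regulated by. They were chosen by name: Cdkn1a, Cdkn1b, Cdkn1c, Cdkn2a, Cdkn2b, Cdkn2c, Trp53, Mdm2, Ccng1 and Gadd45a. Each gene was represented by its brightest probe set among those with exactly 1 gene symbol. Of the 10 genes, 9 were measured this way among 18193 genes in all, and Trp53, which encodes p53, was not analysed here. No filter on low values was applied, and all 9 lay above the median of all probe sets (6.93 on the log2 scale) on all 8 arrays.

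The cells were mesenchyme cultured from the palate of C57BL/6J mouse embryos at embryonic day 13.5 and collected after 2 passages. Mutant cells carried floxed Tgfbr2 alleles with Wnt1-Cre, and control cells carried the same floxed alleles without Cre. The titles of the control samples call them Tgfbr2 wildtype. Wnt1-Cre acts in the neural crest, from which palatal mesenchyme derives, so cells of other lineages in a culture keep an intact receptor gene. Each genotype had 4 arrays, no label ties an array to a particular embryo, so p-values speak only to array-to-array spread, part of which may be technical.

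CDK inhibitors hold cells back from division. The CIP/KIP proteins encoded by Cdkn1a, Cdkn1b and Cdkn1c bind cyclin-CDK complexes, and the INK4 proteins encoded by Cdkn2a, Cdkn2b and Cdkn2c bind CDK4 and CDK6; Cdkn2a also encodes ARF, which restrains Mdm2. p53 induces Cdkn1a, Mdm2, Ccng1 and Gadd45a, and the Mdm2 protein in turn marks p53 for breakdown. TGF-beta is known to slow the division of many cell types partly through Cdkn2b and Cdkn1a, which is why a receptor mutant is a setting in which to look at these genes.

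The regions just upstream of the p53-regulated genes are shown because 3 of the 4, Cdkn1a, Mdm2 and Ccng1, were highest on 1 control array, described below, while Gadd45a was not. Sequences are from RefSeq (GRCm38.p6) and cover the 250 bases before the annotated start, 5′ to 3′ on the gene's strand. Capitals mark exact matches to the 10-base p53 response element unit, which reads the same on both strands. For Cdkn1a, which has 2 annotated starts, the upstream start is shown.
Cdkn1a, chr17:29090729-29090978, plus strand: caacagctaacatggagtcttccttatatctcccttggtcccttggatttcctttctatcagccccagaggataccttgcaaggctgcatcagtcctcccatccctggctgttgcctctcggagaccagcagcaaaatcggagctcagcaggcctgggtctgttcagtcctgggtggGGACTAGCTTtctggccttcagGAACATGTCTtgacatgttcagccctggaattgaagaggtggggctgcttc
Mdm2, chr10:117710759-117711008, minus strand: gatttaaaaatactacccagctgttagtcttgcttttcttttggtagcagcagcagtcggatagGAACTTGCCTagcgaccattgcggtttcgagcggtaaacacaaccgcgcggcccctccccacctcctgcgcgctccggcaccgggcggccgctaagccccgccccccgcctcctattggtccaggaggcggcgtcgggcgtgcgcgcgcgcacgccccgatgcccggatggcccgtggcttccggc
Ccng1, chr11:40755287-40755536, minus strand: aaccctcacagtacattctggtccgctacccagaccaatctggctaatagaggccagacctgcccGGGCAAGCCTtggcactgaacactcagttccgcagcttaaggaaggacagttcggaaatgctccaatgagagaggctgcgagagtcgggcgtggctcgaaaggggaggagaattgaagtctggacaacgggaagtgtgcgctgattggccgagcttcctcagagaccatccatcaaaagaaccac
Gadd45a, chr6:67037408-67037657, minus strand: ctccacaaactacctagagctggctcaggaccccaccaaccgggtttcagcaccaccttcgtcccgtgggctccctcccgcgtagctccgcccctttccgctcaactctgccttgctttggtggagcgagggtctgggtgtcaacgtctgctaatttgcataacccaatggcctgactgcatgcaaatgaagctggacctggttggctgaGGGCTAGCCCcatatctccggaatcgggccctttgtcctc
Cdkn1a held 2 matches, at 73 to 64 and 51 to 42 bases before the start, and no match at its other start. Mdm2 held 1 match at 186 to 177 bases, Ccng1 held 1 at 185 to 176 bases and Gadd45a held 1 at 40 to 31 bases before the start. Among 8 measured members with an entry, these 4 held a match and Cdkn1b, Cdkn2a, Cdkn2b and Cdkn2c did not. Of all genes with a window 8.20% held a match, and of all 32851 windows 7.13%. The 4 genes with a match were listed beforehand as genes that p53 regulates, so their share is no test. Cdkn2a, without a match, was also highest on that control array, and Gadd45a, with a match, was not. Sequence beyond the 250 bases was not searched. A match describes letters in this window and shows neither binding nor a cause.

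For contrast, the window of Cdkn2b, the INK4 gene most closely tied to TGF-beta, held no match to that unit.
Cdkn2b, chr4:89311033-89311282, minus strand: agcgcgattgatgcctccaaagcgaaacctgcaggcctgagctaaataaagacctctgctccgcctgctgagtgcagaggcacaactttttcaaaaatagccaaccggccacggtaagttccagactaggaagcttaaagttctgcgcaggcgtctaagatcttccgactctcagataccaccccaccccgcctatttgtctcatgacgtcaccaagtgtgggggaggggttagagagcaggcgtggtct

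No member passed the test between genotypes. The test was limma on the log2 intensities with Benjamini-Hochberg adjustment over all genes and a threshold of 0.05, and it called 0 of 9 members against 16 of 18193 genes (0.0879%; 0.0220% higher and 0.0660% lower in mutant cells). At an unadjusted p under 0.05 there were 2 members, Gadd45a and Cdkn2b, both lower in mutant cells, against 15.5% of all genes in either direction, 5.84% higher and 9.69% lower. With the bioB level of the arrays, described below, as a block there were 4, with Cdkn1a (adjusted p = 0.137 in limma) and Cdkn2a (adjusted p = 0.163 in limma) also lower, against 22.1% of all genes. The median difference, mutant minus control, was -0.23 over the 9 members and -0.00778 over all genes, with 6 of 9 members below 0 against 51.7% of all genes. For 0 of 9 members did the arrays of the genotypes separate without overlap, against 8.07% of all genes.

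Several features of the arrays bear on every value below. Brightness of the bioB hybridisation controls divided the arrays into replicates 1 and 2 of both genotypes (6.34 to 6.52) and replicates 3 and 4 (8.24 to 8.79). A different split was seen for the poly-A labelling controls. Their mean was 6.77 to 7.56 for mutant 3, mutant 4 and control 3, but 8.68 for control 4. Every other array had a poly-A mean between 8.53 and 9.21. Control 4 was thus the only array bright in both control sets. What part this has in the control 4 levels below was not tested. Markers of macrophages and leukocytes were bright on all arrays, with 20 of 21 above the median probe set throughout. They read higher in mutant than in control arrays on average, by 0.92 for their mean (12.62 ± 1.09 against 11.70 ± 0.84, SD, n = 4). The difference was above 0 for 21 of 21 markers with a median of 0.89, 5 had an unadjusted p under 0.05 and 0 passed the limma test. The part of this shift in the genotype differences below was not tested beyond the fits with the marker mean as a covariate. Their mean ranged from 10.90 to 11.06 on control 3, control 4 and mutant 4 and from 12.31 to 13.19 on the other 5 arrays. Of 12 mesenchyme markers 11 were above the median on all arrays, against 2 of 10 epithelial and 2 of 8 endothelial markers. Of the 8 skeletal muscle markers 2, and of the 6 neuronal and glial markers 3, were above it on all arrays. In control 4 the mesenchyme marker Pdgfra read 10.10, against 12.23 to 12.98 on the other 7 arrays. It was the furthest of the 12 mesenchyme markers from the other controls there. Over the 12 the median of control 4 minus the mean of the other controls was -0.26. Control 4 was the lowest array for 3 of the 12, and lay over 1 below the other controls for 2 of them. The brightest Tgfbr2 probe set differed by 0.37 (SE 0.27, adjusted p = 0.568 in limma's probe set fit). No source used here places its probes inside or outside the floxed exon, so Tgfbr2 checks no label.

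**Figure D1:**
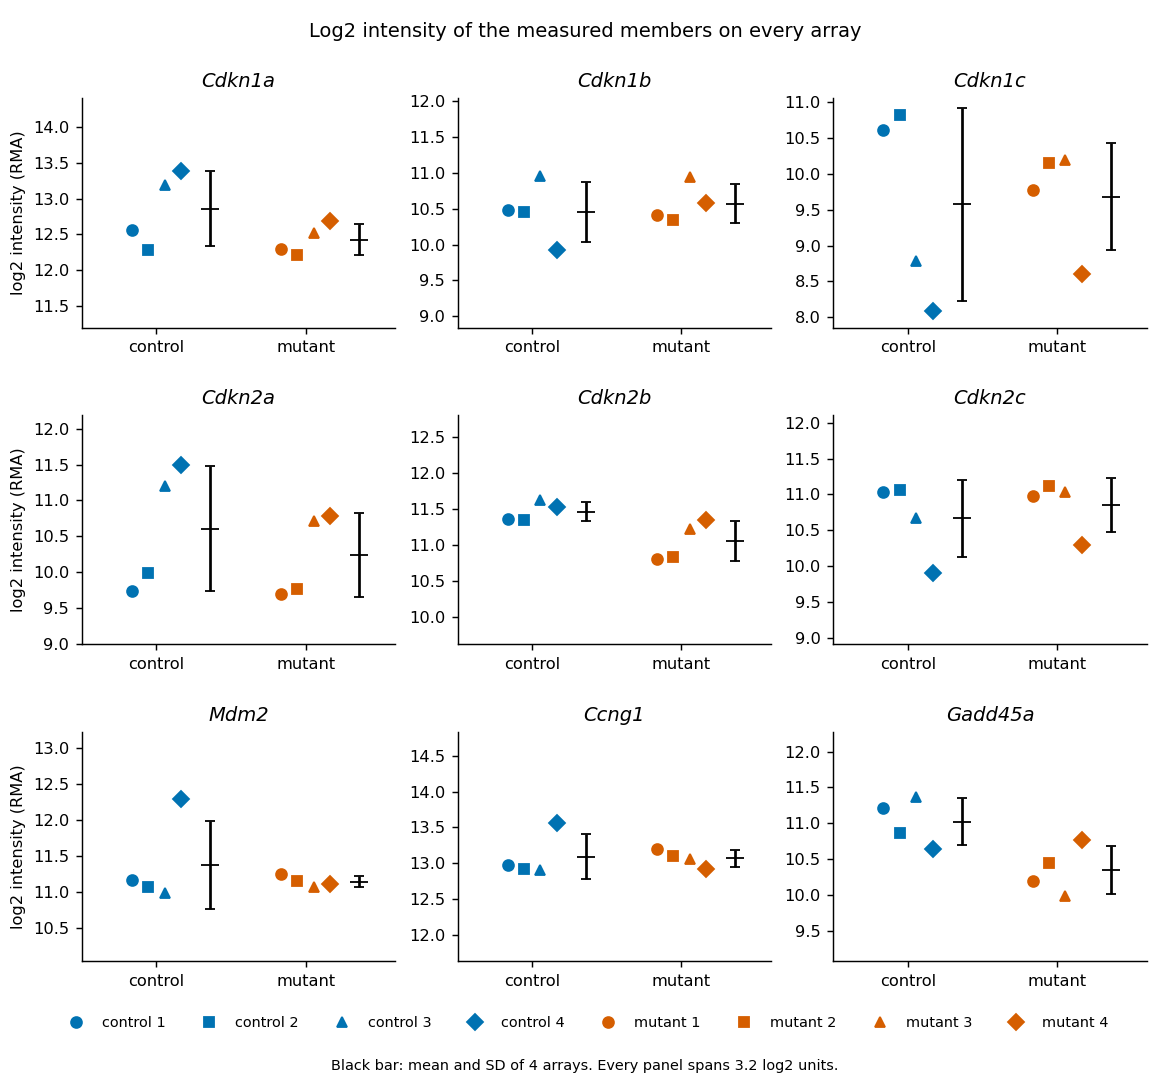
Log2 intensity (RMA values, vertical axis) of the 9 measured genes on each of the 8 arrays, control in blue and mutant in orange, with a symbol shape for each replicate number and the mean and SD of 4 arrays in black. Mdm2 and Ccng1 were close together on 7 arrays and higher on control 4, whereas Cdkn2a was between 9.69 and 9.99 on replicates 1 and 2 and between 10.72 and 11.49 on replicates 3 and 4.

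Gadd45a, a stress-induced protein that interacts with CDK1 and PCNA, had the largest difference of the 9 members. The mutant arrays 1 to 4 read 10.20, 10.45, 9.99 and 10.77 and the control arrays 11.21, 10.86, 11.37 and 10.65. Mutant 4 and control 4 were the pair that crossed, and the other arrays of the genotypes did not overlap. The means were 10.35 ± 0.34 in mutant and 11.02 ± 0.33 in control arrays (SD, n = 4), a difference of -0.67 (SE 0.21, 95% interval -1.15 to -0.20, adjusted p = 0.211 in limma). The difference was larger than the SD of either group but did not pass the test across all genes. It was -0.71 on the arrays with dim bioB controls and -0.63 on those with bright controls. Without mutant 4 it was -0.81 with adjusted p = 0.0471, in a fit that called 7.23% of all genes, and over the 19 alternatives adjusted p ran from 0.0323 to 0.819. The related genes Gadd45b and Gadd45g differed by -0.49 (SE 0.17) and -0.42 (SE 0.13), with adjusted p = 0.251 and 0.220 in limma.

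Cdkn2b, which encodes p15INK4b, was lower in mutant cells by a smaller margin. The mutant arrays 1 to 4 read 10.80, 10.83, 11.22 and 11.35 and the control arrays 11.36, 11.34, 11.63 and 11.53. Mutant 4 lay just above control 2, the lowest control, and the other 3 mutant arrays lay below all controls. The means were 11.05 ± 0.28 and 11.46 ± 0.14 (SD, n = 4), a difference of -0.42 (SE 0.14, 95% interval -0.75 to -0.09, adjusted p = 0.246 in limma). On the arrays with dim bioB controls the difference was -0.54 and on those with bright controls -0.29. The dim-control arrays alone, 2 against 2, gave adjusted p = 0.0153 in limma for Cdkn2b, in a fit that called 11.5% of all genes, and over the 19 alternatives adjusted p ran from 0.0153 to 0.819. With the macrophage marker mean as a covariate Cdkn2b differed by -0.26.

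Cdkn1a, which encodes p21, the CDK inhibitor that p53 induces, differed by -0.43 (SE 0.25, 95% interval -0.995 to 0.131, adjusted p = 0.434 in limma). Mutant arrays 1 to 4 read 12.29, 12.21, 12.52 and 12.69, and control arrays 12.56, 12.29, 13.20 and 13.39. Controls 3 and 4 lay above every mutant array, while controls 1 and 2 fell within the mutant range. The second Cdkn1a probe set differed by -0.27 (SE 0.20, adjusted p = 0.586 in limma's probe set fit). Without control 4 the difference of the brighter probe set was -0.25, and with the macrophage marker mean as a covariate it was -0.13.

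Cdkn2a, whose products p16INK4a and ARF share exons, divided the arrays by the brightness of the bioB controls. The mutant arrays 1 to 4 read 9.69, 9.77, 10.72 and 10.79 and the control arrays 9.74, 9.99, 11.21 and 11.49. All 4 arrays of replicates 3 and 4 were above all 4 of replicates 1 and 2, with means 1.25 apart on the log2 scale. The genotype difference was -0.37 (SE 0.45, 95% interval -1.40 to 0.66, adjusted p = 0.732 in limma), with -0.13 on the dim-control and -0.60 on the bright-control arrays. With the bioB level as a block its SE was 0.12 and adjusted p = 0.163, the lowest of the 19 alternatives, whose highest was 0.951. Without control 4 the difference was -0.07, and with the macrophage marker mean as a covariate it was 0.17. The table used here does not say which Cdkn2a transcript the single probe set reads.

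Cdkn1c and Cdkn2c were spread widely within each genotype. Cdkn1c, which encodes p57, an inhibitor expressed from the maternal allele, read 9.77, 10.16, 10.20 and 8.60 on mutant arrays 1 to 4 and 10.61, 10.81, 8.79 and 8.09 on control arrays 1 to 4. Mutant 4 and controls 3 and 4 were at 8.09 to 8.79, apart from the other 5 arrays at 9.77 to 10.81. The difference was 0.10 (SE 0.65, 95% interval -1.39 to 1.6, adjusted p = 0.957 in limma), an interval too wide to place the gene on either side. It was -0.75 on the dim-control arrays (adjusted p = 0.0287 in limma, 2 against 2), in a fit that called 11.5% of all genes. On the bright-control arrays it was 0.96, and over the 19 alternatives adjusted p ran from 0.0287 to 0.986. With the macrophage marker mean as a covariate it was -0.82 (adjusted p = 0.265).

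Cdkn2c, which encodes p18INK4c, followed the same division of the arrays. Mutant arrays 1 to 4 read 10.98, 11.11, 11.03 and 10.30 and control arrays 11.03, 11.06, 10.67 and 9.91, so that the same 3 arrays were lowest and the other 5 lay within 10.98 to 11.11. The genotype difference was 0.19 (SE 0.28, adjusted p = 0.787 in limma), and -0.06 without control 4. The 3 arrays low in Cdkn1c and Cdkn2c were the 3 with the lowest macrophage marker mean. They were also the 3 highest for Cdkn1a (12.69 to 13.39, against 12.21 to 12.56) and for Cdkn2a (10.79 to 11.49, against 9.69 to 10.72). Cdkn1b, Cdkn2b, Mdm2, Ccng1 and Gadd45a did not divide the arrays this way. The share of all genes that divide them this way was not counted, so the division is not shown to be particular to these members. In bulk RNA fewer cells of a type and less RNA per cell cannot be told apart, and the part of macrophage content in these levels was not tested.

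**Figure D2:**
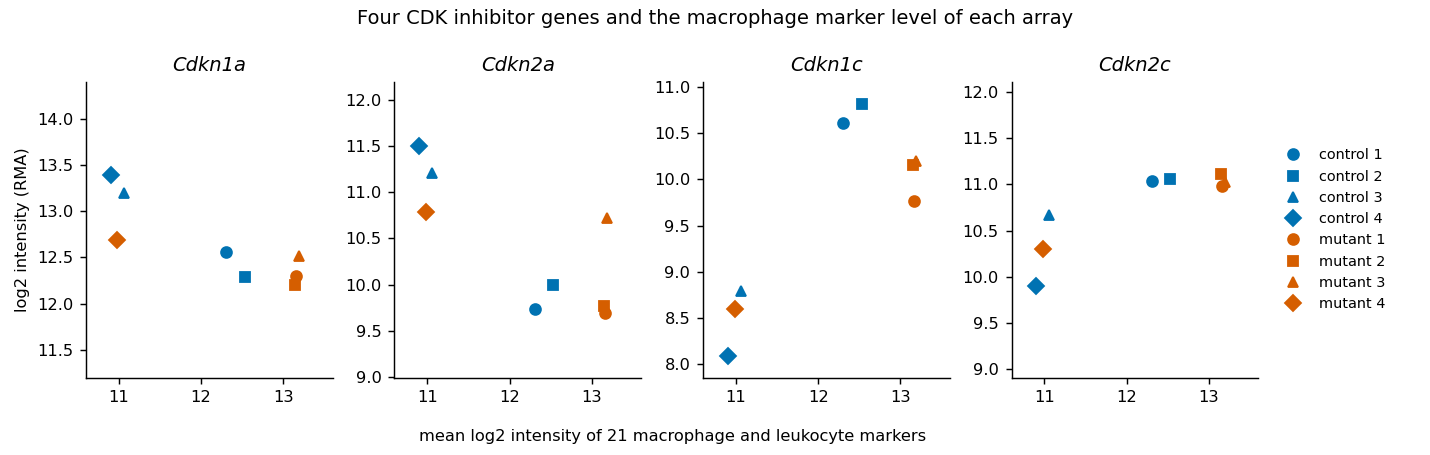
Log2 intensity of Cdkn1a, Cdkn2a, Cdkn1c and Cdkn2c (vertical axes) against the mean log2 intensity of 21 macrophage and leukocyte markers (horizontal axis), 1 symbol per array, control in blue and mutant in orange. The 3 arrays between 10.90 and 11.06 on the horizontal axis, control 3, control 4 and mutant 4, were lowest for Cdkn1c and Cdkn2c and highest for Cdkn1a and Cdkn2a.

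Cdkn1b, which encodes p27, did not pass the test and was lowest on control 4. Mutant arrays read 10.41, 10.35, 10.95 and 10.58 and control arrays 10.49, 10.46, 10.95 and 9.93. Replicates 3 of both genotypes were highest. The difference was 0.12 (SE 0.22, 95% interval -0.39 to 0.62, adjusted p = 0.838 in limma), and -0.06 without control 4. The second Cdkn1b probe set, whose mean was below the median of all probe sets, differed by 0.20 (SE 0.31).

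Mdm2, the ubiquitin ligase that limits p53 and is itself a p53 target, was level on 7 arrays and high on control 4. Mutant arrays 1 to 4 read 11.24, 11.15, 11.06 and 11.11, controls 1 to 3 read 11.16, 11.07 and 10.98, and control 4 read 12.29. Control 4 was thus 1.22 above the mean of the other controls on the log2 scale, or 2.33-fold. The genotype difference was -0.23 (SE 0.27, adjusted p = 0.715 in limma) with control 4 and 0.07 (SE 0.08, adjusted p = 0.699) without it, so the sign changed when that array was left out. A second Mdm2 probe set read 10.37 on control 4 and 8.22 to 9.17 on the other arrays. The remaining probe set, at 4.41 to 4.79 on all arrays, was below the median of all probe sets.

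Ccng1, which encodes cyclin G1, a p53 target that feeds back on p53 activity, had a like profile by its brightest probe set. Mutant arrays 1 to 4 read 13.20, 13.10, 13.06 and 12.92, controls 1 to 3 read 12.97, 12.92 and 12.91, and control 4 read 13.57. Control 4 was 0.63 above the other controls for the brightest probe set and 1.02 and 1.31 above them for the other probe sets. Neither of those was level elsewhere. The probe set with 1.02 read 11.87 on mutant 4 and 11.99 on control 3, against 11.37 to 11.58 on the remaining arrays besides control 4. The probe set with 1.31 ran from 10.79 on control 3 to 11.56 on mutant 1 besides control 4. The genotype difference was -0.02 (SE 0.15, adjusted p = 0.964 in limma), and 0.14 (SE 0.09, adjusted p = 0.484) without control 4. Cdkn1a was 0.71 above the other controls on control 4 by both of its probe sets, with control 3 close to it for the brighter of them. Gadd45a, the other p53 target among the members, was 0.50 below the mean of the other controls on control 4.

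**Figure D3:**
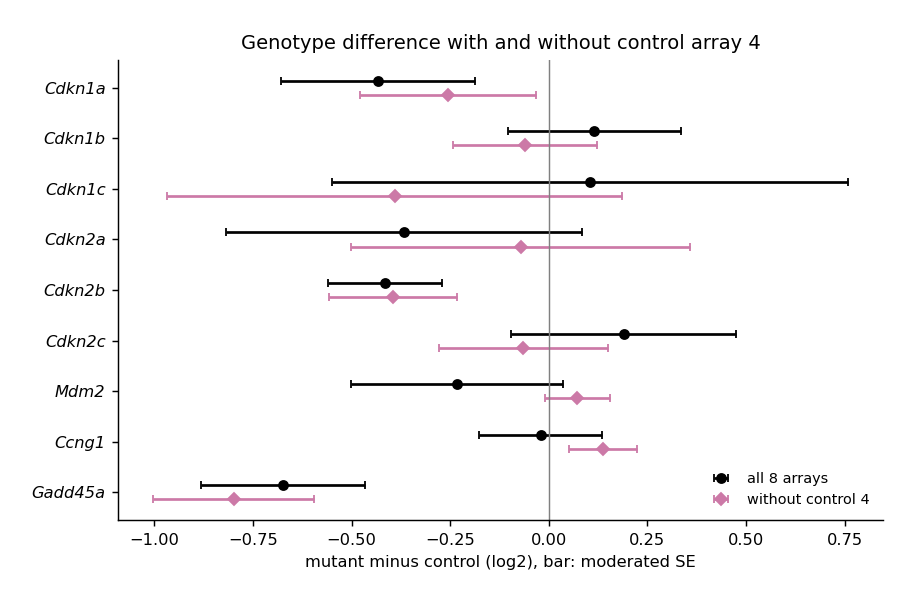
Difference between mutant and control means on the log2 scale (horizontal axis) for the 9 genes, with all 8 arrays in black and without control array 4 in pink, where bars are limma's moderated SE. Gadd45a (-0.67 and -0.80) and Cdkn2b (-0.42 and -0.39) were below 0 in both, while Mdm2, Ccng1, Cdkn1b, Cdkn1c and Cdkn2c changed sign.

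The further p53 targets, a list of 30 genes of which 28 were measured, showed the same array. Control 4 was the highest of the 8 arrays for 14 of the 28, against 17.6% of all genes, and for 4 of the 9 members (Cdkn1a, Cdkn2a, Mdm2 and Ccng1). It was the lowest for 3 of the 9 (Cdkn1b, Cdkn1c and Cdkn2c), and over 1 below the other controls for 2 of them (Cdkn1c and Cdkn2c). The median of control 4 over the mean of the other controls was 0.48 for the list, 0.08 for the members and 0.01 over all genes. It was over 1 for 6 of the 28 genes and 1.25% of all genes. Control 4 was also the lowest array for 5 of the 28, against 15.4% of all genes, and lay over 1 below the other controls for 1 of them (Sesn1) against 2.48%. In other lists described below, control 4 was highest for 5 of 10 genes for CDK inhibitor breakdown and 8 of 18 Ink4-Arf regulators. Of these, 0 of the 10 and 1 of the 18 lay over 1 above the other controls. Control 4 was highest for 1 of 8 relatives of the members and 1 of 13 genes upstream of p53. The count was 3 of 13 for cyclins, CDKs and Rb genes, 3 of 16 for the TGF-beta list and 4 of 15 for proliferation markers. Counts of this kind describe 1 array and carry no test.

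The genes furthest above the other controls on control 4, named after their values were seen, included inducers of cell death and of arrest. Pmaip1, which encodes the BH3-only protein NOXA, read 10.90 on control 4 and between 7.54 and 8.36 on the other 7 arrays. Rprm, an inhibitor of the G2 to M transition, was 1.52 above the mean of the other controls, and Plk2, a polo-like kinase, 1.46 above it. The death receptor gene Eda2r was 1.43, the epithelial junction and apoptosis gene Perp 1.41 and the nuclease gene Aen 1.02 above it. Others were below it: Sesn1, a sestrin that restrains mTORC1, by -1.36 and the autophagy gene Dram1 by -0.93. Of the measured genes of this list 20 had a promoter window and 5 of them held the p53 unit, against 8.20% of all genes with a window, measured or not. The list was chosen as p53 targets, so this share is no test. The 5 were Aen, Polk and Ei24, which were highest on control 4, and Sesn1 and Ppm1d, which were below the other controls there. Rprm, Plk2, Eda2r and Dram1 held no match, and Pmaip1 and Perp had no window.

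**Figure D4:**
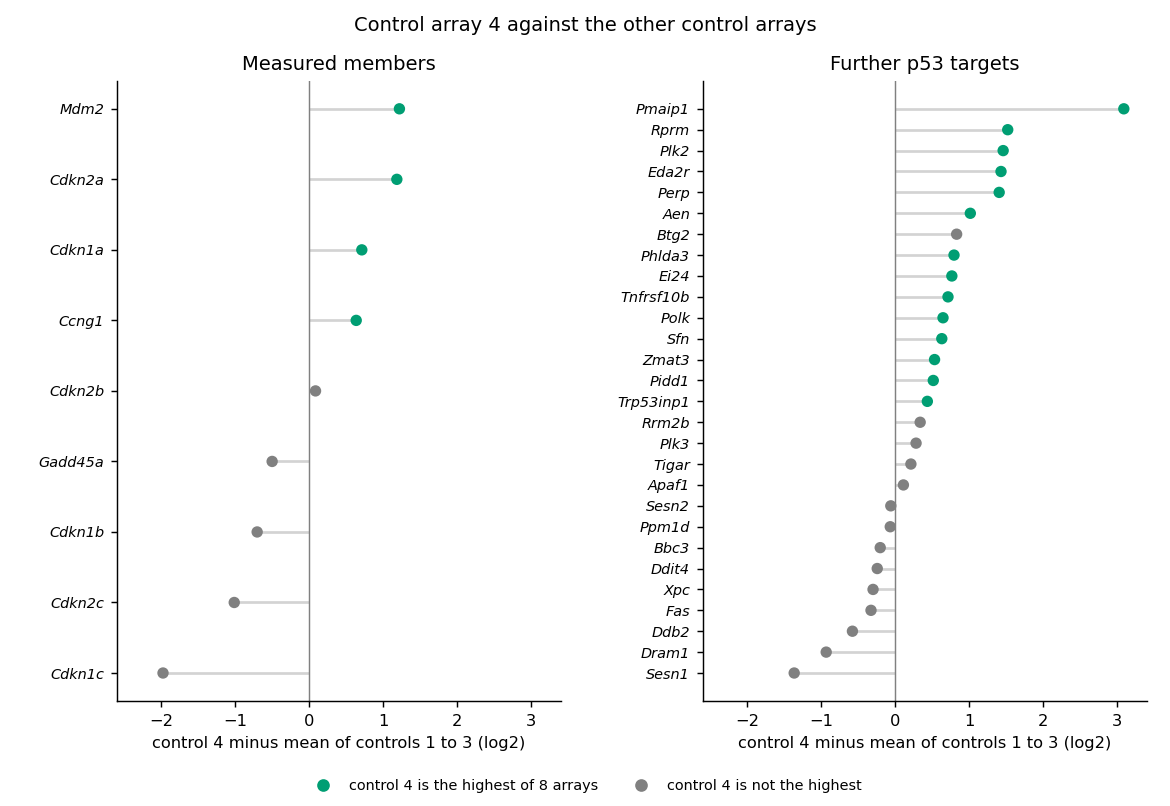
Control array 4 minus the mean of control arrays 1 to 3 (log2, horizontal axis) for the 9 measured members on the left and 28 further p53 targets on the right, with genes for which control 4 was the highest of the 8 arrays in green and the others in grey. Mdm2 (1.22), Cdkn2a (1.18), Cdkn1a (0.71) and Ccng1 (0.63) are the green members, and Pmaip1 (3.09) lies furthest right.

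Between genotypes, 0 of the 28 further p53 targets passed the limma test over all genes, and 4 had an unadjusted p under 0.05, all lower in mutant cells, near the share of all genes (15.5% in either direction, 9.69% lower). That number ran over the alternatives from 1 on the bright-control arrays to 13 on the dim-control arrays. It was 9 without mutant 4, without control 2 or with the bioB level as a block. Of all 18193 genes, 947 were under 0.05 on the bright-control and 5212 on the dim-control arrays. Without mutant 4 there were 4388, without control 2 there were 2578 and with the bioB block 4012. The median difference of the list was -0.12, with 21 of 28 below 0 against 51.7% of all genes. Ddit4, a stress-induced inhibitor of mTORC1, differed by -0.77 (SE 0.18, adjusted p = 0.187 in limma). Its mutant arrays read 11.04 to 11.93 and its controls 12.03 to 12.37, so the genotypes did not overlap, and control 4 was the lowest control. Perp differed by -1.38 (SE 0.40), also without overlap, Plk2 by -1.27 (SE 0.42) and the death receptor gene Tnfrsf10b by -0.46 (SE 0.19). Control 4 was the highest array for these last 3 genes. The mutant mean of Tnfrsf10b, 6.85, was below the median of all probe sets (6.93), and its control mean was 7.31.

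Genes upstream of p53 differed in both directions. Of 13 measured, 0 passed, 1 was higher and 2 were lower at an unadjusted p under 0.05, and the median difference was -0.05. The kinase gene Hipk2, whose product phosphorylates p53, differed by 0.63 (SE 0.17, adjusted p = 0.189 in limma), with mutant arrays at 9.69 to 9.95 and controls at 8.75 to 9.54. The checkpoint kinase genes Chek1 and Atr differed by -0.50 (SE 0.18) and -0.28 (SE 0.11), and the coactivator gene Ep300 by 0.34 (SE 0.16). Among relatives of the members, 8 of 8 measured with a median of 0.00170, 0 passed, with 1 higher and 2 lower at an unadjusted p under 0.05. The p53 inhibitor gene Mdm4 differed by 0.25 (SE 0.10, adjusted p = 0.308 in limma), while Cdkn3, a phosphatase that acts on CDKs, differed by 0.17 (SE 0.22).

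The cyclins, CDKs and Rb proteins on which the inhibitors act had a median of -0.19 over 13 measured genes, with 0 past the limma test and 1 higher and 3 lower at an unadjusted p under 0.05. Cdk4, the INK4 partner, differed by -0.37 (SE 0.12, adjusted p = 0.220 in limma), without overlap. Its means were 11.95 ± 0.22 for mutant and 12.32 ± 0.10 for control arrays (SD, n = 4). Cyclin E1 (Ccne1), a CIP/KIP partner, differed by -0.59 (SE 0.22) and Cdk1 by -0.19 (SE 0.08). Rb1, the pocket protein that CDK4 phosphorylates, differed by 0.51 (SE 0.18), with mutants 1 to 3 at 10.50 to 10.74 and mutant 4 at 9.85 within the control range of 9.75 to 9.98.

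Genes for the breakdown of CDK inhibitors had a median of -0.20 over 10 measured, with 9 below 0 against 51.7% of all genes. Of these 10, 0 passed the limma test and 1 was lower at an unadjusted p under 0.05. The ubiquitin ligase scaffold gene Cul4a differed by -0.25 (SE 0.10) and Skp2, the receptor that marks p27 for breakdown, by -0.62 (SE 0.28). Dtl, the CUL4 receptor for p21, differed by -0.46 (SE 0.22) and Cops5 by -0.16 (SE 0.08). Proliferation markers had a median of -0.27 over 15, with 14 below 0 against 51.7% of all genes. None passed the limma test, and 6 were lower at an unadjusted p under 0.05, against 9.69% of all genes. Over the alternatives the number under 0.05 ran from 3, on the dim-control arrays or without control 4, to 12 with the macrophage covariate. Of all 18193 genes, 5212, 2678 and 3150 were under 0.05 in these fits. The replicative helicase gene Mcm2 differed by -0.53 (SE 0.12, adjusted p = 0.187 in limma), Mcm7 by -0.35 (SE 0.10) and Mcm3 by -0.37 (SE 0.13). The thymidylate synthase gene Tyms differed by -0.46 (SE 0.14). Its means, 5.25 in mutant and 5.71 in control arrays, were below the median of all probe sets (6.93). Mki67 was the marker above 0, at 0.21 (SE 0.29).

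Genes of the TGF-beta growth arrest programme had a median of -0.07 over 16 measured, with 0 past the limma test and 1 higher and 4 lower at an unadjusted p under 0.05. Id1, which TGF-beta regulates and which opposes differentiation, read 10.47 to 10.64 on mutant and 10.80 to 11.37 on control arrays, without overlap, a difference of -0.48 (SE 0.13, adjusted p = 0.190 in limma). The phosphatase gene Cdc25a differed by -0.36 (SE 0.12), the signal transducer gene Smad3 by -0.24 (SE 0.09) and Sp1, a factor that acts at the Cdkn2b and Cdkn1a promoters, by 0.20 (SE 0.08). Regulators of the Ink4-Arf locus, among them Polycomb proteins that silence it, had a median of -0.22 over 18, with 16 below 0 against 51.7% of all genes. None passed the limma test, and 2 were lower at an unadjusted p under 0.05, near the 9.69% of all genes. The Polycomb genes Eed, Ring1 and Ezh2 differed by -0.32 (SE 0.14), -0.27 (SE 0.13) and -0.36 (SE 0.17), with adjusted p from 0.309 to 0.349 in limma. The other Polycomb genes on the list, with larger p, differed by -0.24 (Cbx8), -0.14 (Rnf2), -0.03 (Bmi1), -0.00290 (Suz12) and 0.17 (Cbx7). Id1 stands on both lists.

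Likeness between profiles was taken as the root mean square difference over the 8 arrays after centring each gene on its own mean, among 12186 other genes brighter than the median probe set. The genes nearest to Cdkn1a were Knop1 (0.09 log2 units), Niban2 (0.11), 2810408I11Rik (0.11), Acot7 (0.11) and Nop2 (0.11), where Cdkn1a itself had an SD of 0.44 over the arrays. Nearest to Cdkn2a (SD 0.72) were Nes (0.18), Chst2 (0.19), Dysf (0.21), Phlda3 (0.22) and Crip2 (0.23). Phlda3 is also on the list of further p53 targets and read 10.81 to 12.11 on mutant and 11.38 to 12.48 on control arrays. Nearest to Cdkn2b (SD 0.30) were Cyb5d1, Jrk, Tex264, Arl16 and Stk16, all within 0.07 to 0.08 log2 units. Genes with these profiles share the arrays and their cell mixture, and likeness over 8 arrays is a description.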

How the data were processed

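RNA of the cultured cells was measured on Affymetrix mouse arrays. The authors deposited log2 intensities, 1 per probe set, which the submitters' processing notes tie to RMA (version: not given in the sources used here). They were used as deposited. Of 45101 probe sets 34945 had 1 gene symbol, updated by Entrez identifier where possible through RefSeq (34741 matched). The brightest probe set represented each gene. Groups came from the sample titles, and array number limits the precision.

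Each gene's mutant minus control difference came from limma 3.58.1 under R 4.3.3 (lmFit and eBayes without covariates, two-sided), adjusted over all 18193 genes with Benjamini-Hochberg. Named genes were the members, up to 4 per list with the smallest p, the 5 nearest profiles of Cdkn1a, Cdkn2a and Cdkn2b, and Tgfbr2. Genes named for their control 4 level (Pmaip1, Rprm, Eda2r, Aen, Sesn1, Dram1, Pdgfra) or as outlying values were chosen after their values were seen. So were genes named for a promoter match (Polk, Ei24, Ppm1d), Mki67 and the Polycomb genes with larger p, which show more of their lists. Members and lists were chosen with earlier results of these data known. Arrays were split at a mean bioB control of 7.5 and a poly-A control of 8. Alternatives covered scaling, probe set choice, dim genes, variance model, blocks, a macrophage covariate and left-out arrays. On simulated data (4 against 4, 18193 genes) 81% of 100 genes changed by 1 and 97% of 100 changed by 2 were recovered, with 5 false calls among 183. The simulated noise was independent between genes and held no bioB, macrophage or control 4 pattern. Changes smaller than 1 were not simulated. The largest member difference was -0.67 (Gadd45a), so this recovery does not cover differences of the size seen in the members.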

Additional observations from a re-analysis of the deposited data

Results flagged for a closer look

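Values were listed here where the highest or lowest of 4 arrays lay far from the other 3 (gap over range above Dixon's critical value at 95%). This held for 21 of 206 groups of 4, or 10.2%, where chance flags about 1 in 20, and genes that vary together are not independent. On control 4, 9 genes were set apart. Mdm2 at 12.29 (11.16), Ccng1 at 13.57 (12.97), Pmaip1 at 10.90 (8.0), Btg2 at 11.70 (10.95), Polk at 10.17 (9.59) and Atr at 8.53 (8.23) were high, and Cdkn3 at 9.47 (10.39) and Pdgfra at 10.10 (12.23) were low, as was Sp1 at 10.70 (10.94). Numbers in parentheses are the nearest other control.

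On mutant 4, Cdkn2c at 10.30 (nearest other mutant 10.98), Sesn1 at 10.16 (12.15), Aif1 at 11.38 (13.16), Cx3cr1 at 10.81 (12.14) and Ptprc at 11.64 (13.26) were low. On control 3, Apaf1 was low at 8.98 (9.46) and Bbc3 high at 9.36 (8.93), and on control 2 Cd52 was high at 14.03 (13.76). On mutant 3, Ccne1 was low at 9.67 (9.95) and Myod1 high at 6.45 (6.18), on mutant 1 Stmn2 was low at 8.51 (9.55), and on mutant 2 the mean of the genes for CDK inhibitor turnover was high at 11.28 (11.18).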

How the results depend on the processing

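Cdkn1a, Cdkn2b and Gadd45a kept their direction under all 19 alternatives (-0.69 to -0.13, -0.54 to -0.26 and -0.81 to -0.53). Calls rested on few arrays. The number of genes called, 16, was 0 to 1316 with 1 array left out, 0 with the replicate block, 2 with the poly-A level as a block, 51 with the macrophage covariate, 2085 on the dim-bioB arrays alone and 0 on the bright-bioB arrays alone, where 947 had an unadjusted p under 0.05. The number of members called was 0 in all but 2 alternatives: 3 on the dim-bioB arrays (Cdkn1c, Cdkn2b at -0.54 and Gadd45a at -0.71), and 0 to 1 with 1 array left out (Gadd45a at -0.81 without mutant 4). Leaving out mutant 1, mutant 2 or control 1 gave 0 genes, mutant 3 or control 3 gave 1, control 2 gave 2, control 4 gave 31 and mutant 4 gave 1316. Same-numbered arrays deviated together with correlations of 0.47, 0.42, -0.09 and 0.37, and 0 of 4 mutant arrays correlated best with the control of their number, so numbers were not taken as pairs. The replicate block changed no member's call, 4 members had an unadjusted p under 0.05 with it, and 3828 genes had an unadjusted p under 0.05 with it.

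Some small differences changed sign. With the poly-A block Cdkn1b was -0.0105 and Ccng1 0.0287. With the macrophage covariate Cdkn1c was -0.82, Cdkn2a 0.17, Cdkn2c -0.20 and Ccng1 0.00428. On the dim-bioB arrays Cdkn1b was -0.0929, Cdkn1c -0.75, Mdm2 0.0834 and Ccng1 0.21. With 1 array left out the ranges were -0.0609 to 0.28 for Cdkn1b, -0.39 to 0.52 for Cdkn1c, -0.0642 to 0.38 for Cdkn2c, -0.36 to 0.0725 for Mdm2, -0.81 to -0.55 for Gadd45a and -0.0825 to 0.14 for Ccng1; of these, Mdm2 and Cdkn2c turned only without control 4.

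List medians moved by more than their spread between arrays as follows. With probe sets averaged, CDK inhibitor turnover was -0.12 and regulators of the Ink4-Arf locus -0.11. The TGF-beta list was -0.14 with the poly-A block, and turnover -0.11 with the macrophage covariate. Relatives of the members were -0.0657 on the dim-bioB arrays. On the bright-bioB arrays further p53 targets were -0.28 and Ink4-Arf regulators -0.12. With 1 array left out the ranges were -0.26 to -0.13 for Ink4-Arf regulators, -0.23 to -0.0772 for cyclins, CDKs and Rb family and -0.16 to -0.0683 for the TGF-beta list. The cause of these shifts was not tested.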
